A study of Mus musculus with 8 samples.

Results

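The collagen genes of the mouse left ventricle are described here, 44 genes of the 55385 in the deposited table, chosen as every symbol made of Col, a number, the letter a and a number. They fell into 11 fibrillar genes, 6 type IV genes of basement membrane, 3 short-chain network genes, 9 genes of the FACIT class (fibril-associated collagens with interrupted triple helices), 6 type VI genes of beaded filaments, 1 anchoring-fibril gene, 2 multiplexins, 4 transmembrane collagens and 2 others. RNA-seq libraries came from left ventricle of male C57BL6 mice, 4 labelled Mst1-TG, with experimental dilated cardiomyopathy, and 4 labelled WT, their non-transgenic littermates. The Mst1-TG mice carry extra Mst1, a Hippo pathway kinase encoded by Stk4, driven by an alpha-myosin heavy chain promoter and so made in cardiomyocytes, whereas most collagen of the heart is made by other cells. No deletion or drug is given for either group. The design text puts the mice at 3 weeks of age and the extraction protocol at 3 months, and the labels describe 1 transgenic strain without naming a founder line or saying which library came from which animal.

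Collagens are secreted or membrane-bound proteins whose chains wind in threes of like or unlike kind into a triple helix, built from short repeats that each hold a glycine. Fibrillar collagens give the heart wall its tensile strength, type IV collagen forms the sheet of basement membrane around each myocyte and capillary, and the fibril-associated and beaded forms link fibrils to each other and to cells. In the heart, fibroblasts are the main source of types I and III, and their expansion or activation is the textbook basis of fibrosis.

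The libraries held 21193536 to 23809256 estimated counts. Mitochondrially encoded genes took 12.9% to 14.4% of counts in Mst1-TG and 21.4% to 23.8% in WT, and on the second principal component (8.89% of variance) WT 4 stood away from the rest of its group. Stk4, the overexpressed gene, was at 1449 to 1747 CPM in Mst1-TG and 25.2 to 29.6 CPM in WT, as the labels say. Cardiomyocyte markers were abundant in both groups, at a summed 25474 to 34454 CPM in Mst1-TG and 35184 to 43448 CPM in WT, and 4 of the 7 fell (Myh6, Tnnt2, Tnni3 and Myl2, at log2 fold changes of -0.40 ± 0.12, -0.42 ± 0.10, -1.33 ± 0.09 and -0.90 ± 0.09) while 0 rose. Among all genes tested 21.1% fell and 21.2% rose. By library totals alone 2 of the 7, Tnni3 and Myl2, were lower and 2 higher, against 1592 lower and 7409 higher of the 15314 genes tested. CPM are counts scaled to library totals that TMM factors correct for differences in composition. A gene rose or fell where the edgeR quasi-likelihood test gave a Benjamini-Hochberg adjusted p below 0.05 over the 15314 genes tested, and log2 fold changes set Mst1-TG over WT and carry their SE.

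Collagen RNA was more abundant in the Mst1-TG left ventricle, and each of the 9 classes held at least 1 gene that rose. Of the 44 collagens 39 passed the filter on low counts, and 27 of them rose, 0 fell and 12 were not called. Over all genes tested, 42.3% were called, with 21.2% higher in Mst1-TG and 21.1% lower. At an unadjusted p below 0.05, edgeR, DESeq2 and limma-voom each gave 0 lower collagens, and 3 had a log2 fold change below 0. The median log2 fold change of the 39 was 1.03, against 0.01 for all genes tested. A rise of at least 2-fold was called for 20 collagens (5.81% of all genes tested). In 26 collagens the 4 Mst1-TG libraries all lay above the 4 WT libraries, as in 20.2% of all genes tested, and in 0 tested collagens did all lie below, as in 20.1% of all genes tested. Against a minimum 1.5-fold change 21 collagens passed (5.84% of all genes tested). Col3a1, Col4a1, Col4a2, Col6a3, Col18a1 and Col23a1 rose but did not pass that test. When libraries were scaled by their totals alone, the median of all genes moved to 0.29 and that of the collagens to 1.32. All 27 were still called higher, with 2 more, against 7409 of the 15314 genes tested.

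Summed over the 44 genes, collagen RNA came to 14917, 11042, 13839 and 13829.9 CPM in Mst1-TG 1 to 4, against 5601, 7345, 6768 and 8031 CPM in WT 1 to 4. The groups did not overlap, and the ratio of their means was 1.93. As a share of all counts, collagens took 1.19% to 1.65% in Mst1-TG and 0.498% to 0.752% in WT. Of 8 fibroblast markers 7 were higher, against 21.2% of all genes tested. By library totals alone all 8 were higher, against 7409 of the 15314 genes tested. Among the 8, 5 are matrix genes or receptors that also stand in the lists below. The summed level of the 8 was 3983 to 4555 CPM in Mst1-TG and 2514 to 2900 CPM in WT. Among the 3 fibroblast markers in no other list, Pdgfra and Tcf21 rose by 1.13 ± 0.08 and 0.70 ± 0.10 on the log2 scale, and Gsn was at 1616 to 2304 CPM in Mst1-TG and 1482 to 1799.6 CPM in WT and was not called. In whole ventricle, more cells of a type and more RNA per cell cannot be told apart, and the part of cell number in the collagen values was not tested.

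**Figure D1:**
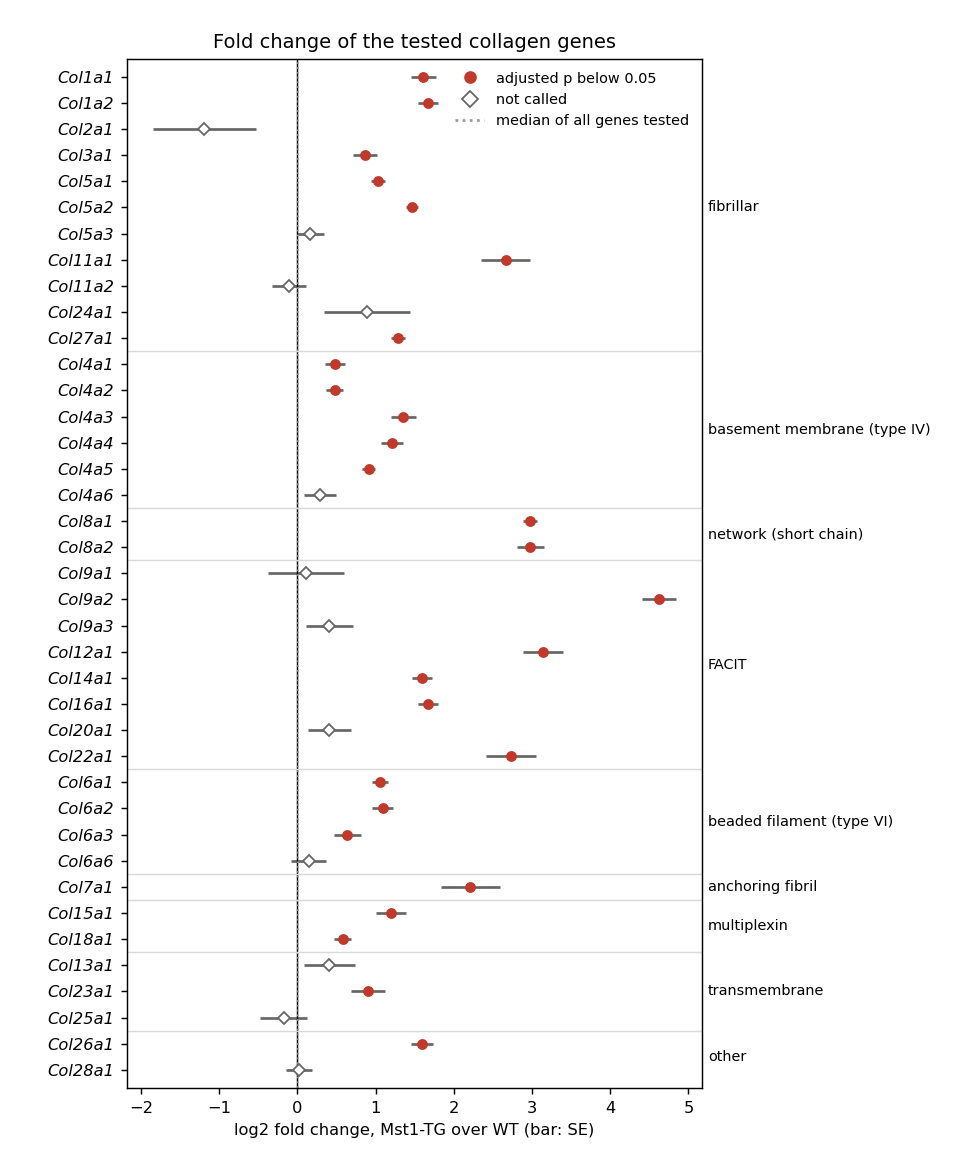
The log2 fold change (Mst1-TG over WT, x axis) of the 39 tested collagen genes, grouped by class down the page, with SE as bars; filled circles mark an edgeR adjusted p below 0.05 and open diamonds genes not called. Col9a2 stands farthest right at 4.62, Col2a1 farthest left at -1.19, and no filled circle lies left of 0.

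The main fibrillar collagens of the ventricle wall all rose, Col1a1 3.05-fold, Col1a2 3.19-fold and Col3a1 1.83-fold. Per kilobase of transcript, the highest group mean was that of Col3a1 in Mst1-TG and of Col4a1 in WT. In Mst1-TG Col3a1 was at 380 ± 68.3 and Col4a1 at 353 ± 47.8 CPM (SD, n = 4 each). In WT Col3a1 was at 208 ± 38.1 and Col4a1 at 252 ± 41.1 CPM. The promoters of Col1a2 and Col3a1 are shown because these genes, with Col1a1, are the most abundant fibrillar genes per kilobase; the windows run from 250 bases before to 50 after the RefSeq start (GRCm38.p6), both on the plus strand, and capitals mark a CCAAT box (CCAAT), a TEAD motif (GGAATG, the site of the partners of YAP and TAZ) or a TATA box (TATAAA) read on either strand.
Col1a2: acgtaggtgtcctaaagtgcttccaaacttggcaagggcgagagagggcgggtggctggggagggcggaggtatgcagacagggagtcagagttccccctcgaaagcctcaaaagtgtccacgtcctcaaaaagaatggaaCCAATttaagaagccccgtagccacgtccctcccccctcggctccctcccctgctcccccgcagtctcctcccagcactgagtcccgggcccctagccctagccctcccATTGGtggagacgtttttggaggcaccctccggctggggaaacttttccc
Col3a1: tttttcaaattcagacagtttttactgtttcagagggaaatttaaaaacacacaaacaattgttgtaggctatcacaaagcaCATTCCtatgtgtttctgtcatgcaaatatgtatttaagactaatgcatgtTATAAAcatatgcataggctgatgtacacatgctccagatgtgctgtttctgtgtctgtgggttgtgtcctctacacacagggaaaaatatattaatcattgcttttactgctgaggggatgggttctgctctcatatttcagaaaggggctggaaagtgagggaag
The Col1a2 window (chr6:4505368-4505667) held 2 CCAAT boxes, 1 before the RefSeq start and 1 at it. In GENCODE M21 Col1a2 starts at chr6:4504814, which lies before this window. The Col3a1 window (chr1:45311288-45311587) held 1 TEAD motif and 1 TATA box, both before the start. The marks are sequence matches, and their use as promoter elements was not tested. Over 32544 RefSeq windows of the same length, 37.4% held a CCAAT box, 14.6% the TEAD motif and 13.6% the TATA box, none overlapping another in the windows shown, and over the 38 windows of 35 collagens in that table the shares were 34.2%, 13.2% and 13.2%. The AP-1 motif TGANTCA was in 7.79% of all windows and 2.63% of the collagen windows.

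Type I collagen, the stiff main fibre of scar and tendon, rose in both of its chains. Col1a1 (chr11:94936224-94953042, plus strand, GENCODE M21 on GRCm38) was at 1739, 1081, 1389 and 1371 CPM in Mst1-TG 1 to 4, against 359, 525, 421 and 524 CPM in WT 1 to 4. Col1a2 was at 1654, 1144, 1410.1 and 1406 CPM in Mst1-TG 1 to 4, against 367, 493, 397 and 502 CPM in WT 1 to 4. In both genes Mst1-TG 1 was highest and Mst1-TG 2 lowest of their group, and that lowest library still lay above every WT library. The means of Col1a1 were 1395 ± 269 CPM in Mst1-TG and 457 ± 81.5 CPM in WT (SD, n = 4 each; log2 fold change 1.61 ± 0.16, edgeR adjusted p = 1.1e-05), and those of Col1a2 were 1404 ± 208 CPM in Mst1-TG and 439.7 ± 68.0 CPM in WT (1.67 ± 0.13, edgeR adjusted p = 5.6e-07). Col3a1 (chr1:45311538-45349706, plus strand), whose homotrimer forms the finer and more pliable reticular fibres, was at 2526, 1613, 2093 and 2222 CPM in Mst1-TG 1 to 4, against 911, 1246, 1068 and 1399 CPM in WT 1 to 4. The nearest libraries of the groups were Mst1-TG 2 and WT 4, with no overlap, and the rise was 1.83-fold (0.87 ± 0.15, edgeR adjusted p = 7.8e-04).

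Type V collagen starts fibrils and limits their width, and of its 3 chains Col5a1 and Col5a2 rose. Col5a1 was at 524, 425, 473 and 521 CPM in Mst1-TG 1 to 4, against 209, 271, 232 and 238 CPM in WT 1 to 4. Col5a2, which lies beside Col3a1 on chromosome 1 (chr1:45374321-45503282, minus strand), was at 344, 325, 389 and 345 CPM in Mst1-TG 1 to 4, against 115, 135, 123 and 135 CPM in WT 1 to 4. Both rose without overlap, Col5a1 by 1.03 ± 0.09 and Col5a2 by 1.46 ± 0.08 (edgeR adjusted p = 1.3e-06 and 3.1e-08). The third chain, Col5a3, was at 145, 91.9, 115 and 129.7 CPM in Mst1-TG 1 to 4, against 76.7, 117, 109 and 126 CPM in WT 1 to 4. Its groups overlapped through most of their range, and it was not called (0.17 ± 0.17, edgeR adjusted p = 0.48).

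The scarcer fibrillar genes, best known from cartilage and bone, gave called and uncalled members. Col11a1, a minor chain of cartilage fibrils, was at 12.4, 9.07, 12.5 and 7.48 CPM in Mst1-TG 1 to 4, against 1.04, 3.05, 1.19 and 1.31 CPM in WT 1 to 4. It rose by 2.66 ± 0.31 (edgeR adjusted p = 4.8e-05), with WT 2 far above the other 3 WT libraries. Col27a1, a fibrillar collagen of developing cartilage, was at 35.6, 30.4, 34.6 and 31.0 CPM in Mst1-TG 1 to 4, against 12.8, 14.8, 13.8 and 12.5 CPM in WT 1 to 4, a 2.44-fold rise (edgeR adjusted p = 9.4e-08). Col2a1, the main collagen of cartilage, lay at 0.0418 to 0.730 CPM in Mst1-TG and 0.403 to 2.07 CPM in WT, Col11a2 at 3.34 to 4.49 CPM in Mst1-TG and 2.52 to 5.43 CPM in WT and Col24a1 at 0.293 to 1.02 CPM in Mst1-TG and 0.142 to 0.724 CPM in WT. These 3 overlapped between groups and were not called, at log2 fold changes of -1.19, -0.11 and 0.89. WT 2 was the highest WT library in all 3, and without it the values were -0.47 for Col2a1, 0.034 for Col11a2 and 1.55 for Col24a1, still not called. In all, 7 of 11 fibrillar genes rose, with a class median of 1.03.

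**Figure D2:**
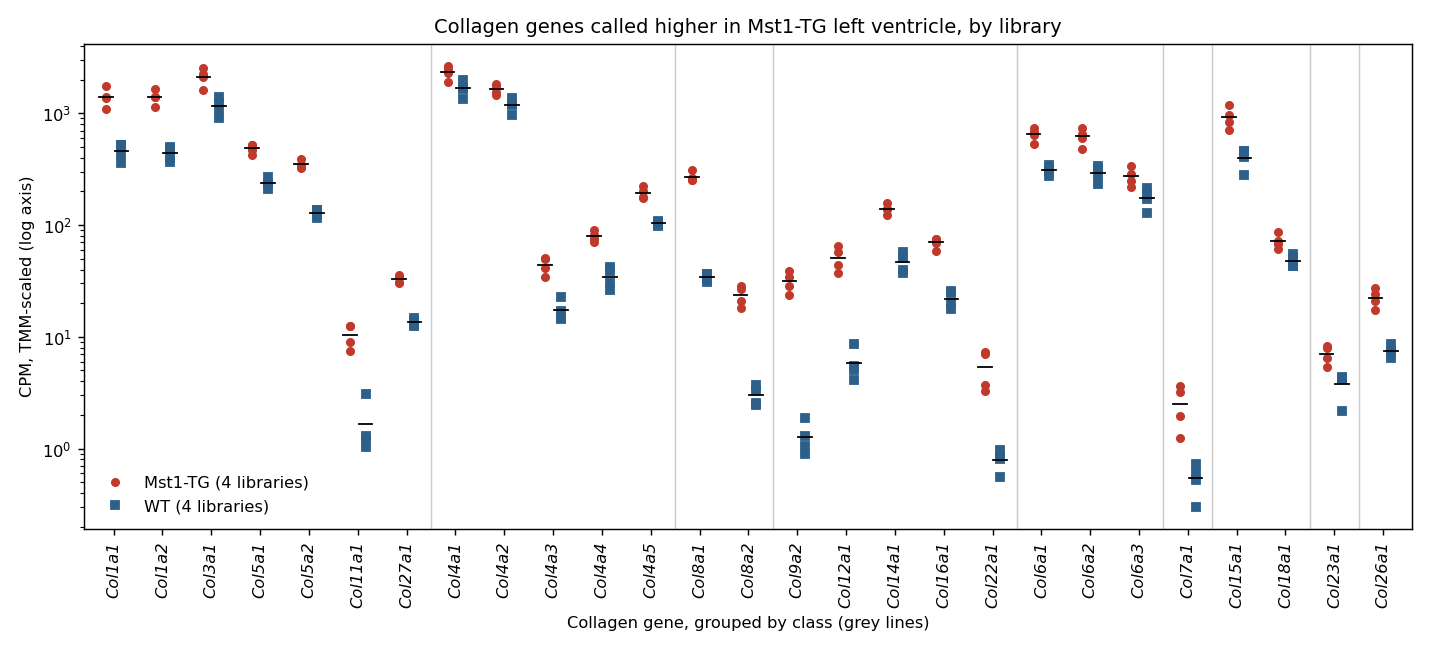
CPM (log axis) of the 27 collagen genes called higher, with 1 circle per Mst1-TG library, 1 square per WT library, the group mean as a bar and grey lines between classes. The circles all lie above the squares in every gene except Col4a1, where Mst1-TG 2 (1910.1 CPM) lies under WT 4 (1994 CPM). In Col6a3 the groups nearly meet, with Mst1-TG 2 at 220.0 CPM and WT 2 at 214 CPM.

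The basement membrane collagens were the most abundant class in WT, and 5 of the 6 genes rose. The type IV genes stand in head-to-head pairs. In GENCODE M21 the starts of Col4a1 and Col4a2 on chromosome 8 overlap by 22 bases, those of Col4a4 and Col4a3 on chromosome 1 lie 72 bases apart and those of Col4a6 and Col4a5 on chromosome X lie 1309 bases apart. The windows of the first pair, and the Col4a4 window that reaches over the Col4a3 start, are shown because the paired genes share this stretch. Col4a1 and Col4a4 are given on the minus strand and Col4a2 on the plus strand, from RefSeq on GRCm38.p6, with CCAAT boxes in capitals.
Col4a1: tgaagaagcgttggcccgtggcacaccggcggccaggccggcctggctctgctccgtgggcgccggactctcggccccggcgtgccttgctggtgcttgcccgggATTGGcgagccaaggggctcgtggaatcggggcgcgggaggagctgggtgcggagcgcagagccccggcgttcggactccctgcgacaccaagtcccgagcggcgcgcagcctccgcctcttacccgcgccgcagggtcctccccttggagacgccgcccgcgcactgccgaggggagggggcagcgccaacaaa
Col4a2: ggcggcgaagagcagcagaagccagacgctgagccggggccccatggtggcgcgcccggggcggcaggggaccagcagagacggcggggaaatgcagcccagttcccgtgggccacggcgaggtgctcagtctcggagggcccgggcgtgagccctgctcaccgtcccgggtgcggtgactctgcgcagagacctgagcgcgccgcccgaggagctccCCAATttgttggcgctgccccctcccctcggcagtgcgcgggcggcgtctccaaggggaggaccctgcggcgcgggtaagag
Col4a4: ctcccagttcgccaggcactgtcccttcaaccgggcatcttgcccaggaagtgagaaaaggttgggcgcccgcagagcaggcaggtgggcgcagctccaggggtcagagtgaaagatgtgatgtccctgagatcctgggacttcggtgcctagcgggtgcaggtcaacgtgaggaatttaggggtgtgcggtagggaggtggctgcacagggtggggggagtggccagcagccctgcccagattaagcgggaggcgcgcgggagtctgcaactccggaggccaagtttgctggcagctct
The Col4a1 window (chr8:11312777-11313076) and the Col4a2 window (chr8:11312555-11312854) each held 1 CCAAT box, at GC contents of 74.0% and 73.7%. In the Col4a4 window (chr1:82586800-82587099, 63.3% GC) none of these motifs was found.

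Col4a1 and Col4a2, whose chains form the type IV collagen found in nearly every basement membrane, rose by similar amounts. Col4a1 was at 2298, 1910.1, 2644 and 2485 CPM in Mst1-TG 1 to 4, against 1329, 1654, 1692 and 1994 CPM in WT 1 to 4. Col4a2 was at 1559.8, 1454, 1819 and 1738 CPM in Mst1-TG 1 to 4, against 972, 1185, 1198 and 1369 CPM in WT 1 to 4. Mst1-TG 3 was highest and Mst1-TG 2 lowest in both genes, and WT 4 highest and WT 1 lowest. The rises were 1.400-fold and 1.39-fold (0.49 ± 0.13 and 0.48 ± 0.11, edgeR adjusted p = 0.0082 and 0.0028), and neither passed the test against a minimum 1.5-fold change.

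The pair Col4a3 and Col4a4, known from the filtration barrier of the kidney, was scarcer and also rose. Col4a3 was at 41.2, 50.6, 49.5 and 34.6 CPM in Mst1-TG 1 to 4, against 14.4, 16.9, 14.9 and 22.6 CPM in WT 1 to 4. Col4a4 was at 74.5, 80.8, 89.7 and 71.1 CPM in Mst1-TG 1 to 4, against 26.1, 38.7, 30.4 and 42.0 CPM in WT 1 to 4. Neither overlapped between groups, and they rose by 1.36 ± 0.16 and 1.21 ± 0.14 (edgeR adjusted p = 6.1e-05 and 4.2e-05). Col4a5, the partner chain of that pair, was at 202, 222, 175 and 179.8 CPM in Mst1-TG 1 to 4, against 99.9, 109, 106 and 98.9 CPM in WT 1 to 4, a 1.88-fold rise (edgeR adjusted p = 1.2e-06). Col4a6 lay at 3.64 to 7.46 CPM in Mst1-TG and 3.68 to 4.76 CPM in WT and was not called (0.29 ± 0.21, edgeR adjusted p = 0.29), although it was when only library totals were used for scaling (0.58, adjusted p = 0.033). Thus 5 of 6 type IV genes rose, with a class median of 0.70.

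The short-chain network collagen of type VIII rose in both of its chains. Type VIII collagen forms hexagonal lattices in vessel walls and under the corneal endothelium. Its promoter windows, Col8a1 on the minus strand (chr16:57754688-57754987) and Col8a2 on the plus strand (chr4:126286544-126286843), are shown because both chains of the network rose; none of the 4 motifs was found in either.
Col8a1: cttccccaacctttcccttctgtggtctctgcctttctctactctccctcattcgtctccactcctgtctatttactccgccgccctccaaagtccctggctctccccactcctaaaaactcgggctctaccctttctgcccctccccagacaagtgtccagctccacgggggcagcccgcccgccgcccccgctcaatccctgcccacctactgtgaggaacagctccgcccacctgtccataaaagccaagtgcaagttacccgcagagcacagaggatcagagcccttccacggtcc
Col8a2: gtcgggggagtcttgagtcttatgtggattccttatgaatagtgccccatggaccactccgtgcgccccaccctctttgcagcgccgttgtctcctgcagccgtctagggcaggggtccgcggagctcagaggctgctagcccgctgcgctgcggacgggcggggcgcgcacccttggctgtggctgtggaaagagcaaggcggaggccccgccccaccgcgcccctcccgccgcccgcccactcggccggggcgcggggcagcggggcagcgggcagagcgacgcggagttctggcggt
Col8a1 was at 265, 252, 309 and 250.3 CPM in Mst1-TG 1 to 4, against 32.2, 36.2, 31.2 and 36.8 CPM in WT 1 to 4. Col8a2 was at 28.7, 18.2, 26.8 and 21.03 CPM in Mst1-TG 1 to 4, against 2.55, 3.67, 3.33 and 2.47 CPM in WT 1 to 4. Every Mst1-TG library lay far above every WT library, with little spread within a group for Col8a1. The log2 fold changes were 2.98 ± 0.09 and 2.98 ± 0.18 (edgeR adjusted p = 3.0e-10 and 8.0e-08), or 7.88-fold and 7.89-fold. Per kilobase of transcript Col8a1 ranked 11th of the 44 collagens in Mst1-TG and 16th in WT. The third gene of the class, Col10a1 of hypertrophic cartilage, had 4 counts over the 4 Mst1-TG libraries and 1 over the 4 WT libraries and was not tested.

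Among the FACITs, which sit on fibril surfaces, 5 of 8 tested genes rose, each at least 2-fold, with a class median of 1.63. Col9a2, 1 of the 3 chains of cartilage type IX collagen, had the largest fold change of all collagens. It was at 38.5, 23.7, 28.7 and 34.4 CPM in Mst1-TG 1 to 4, against 0.897, 1.29, 1.05 and 1.86 CPM in WT 1 to 4. All Mst1-TG libraries exceeded all WT libraries, and the means were 31.3 ± 6.50 CPM in Mst1-TG and 1.28 ± 0.425 CPM in WT (SD, n = 4 each; 4.62 ± 0.22, edgeR adjusted p = 4.0e-08), a 24.6-fold rise. GENCODE M21 has no gene that overlaps Col9a2. The other chains of type IX were scarce. Col9a1 was at 1.34, 0.864, 0.652 and 0.4599 CPM in Mst1-TG 1 to 4, against 0.803, 1.55, 0.428 and 0.302 CPM in WT 1 to 4. Col9a3 was at 0.932, 0.648, 0.897 and 0.920 CPM in Mst1-TG 1 to 4, against 0.567, 0.724, 0.809 and 0.454 CPM in WT 1 to 4. Both overlapped between groups and were not called (0.11 ± 0.49 and 0.41 ± 0.31, edgeR adjusted p = 0.88 and 0.31). Per kilobase, the level of Col9a2 was 10.7 ± 2.22 in Mst1-TG and 0.436 ± 0.145 in WT CPM, that of Col9a1 0.216 ± 0.0984 in Mst1-TG and 0.201 ± 0.146 in WT and that of Col9a3 0.279 ± 0.0444 in Mst1-TG and 0.209 ± 0.0521 in WT (SD, n = 4 each).

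Col12a1 and Col14a1, which bind the surface of type I fibrils in tendon and other stretched tissue, both rose. Col12a1 was at 44.0, 57.8, 65.2 and 37.6 CPM in Mst1-TG 1 to 4, against 5.43, 8.68, 5.04 and 4.13 CPM in WT 1 to 4. Col14a1 was at 156, 124, 139 and 139.8 CPM in Mst1-TG 1 to 4, against 37.6, 51.0, 39.4 and 57.5 CPM in WT 1 to 4. Col12a1 rose 8.80-fold (3.14 ± 0.25, edgeR adjusted p = 1.0e-05) and Col14a1 3.02-fold (1.59 ± 0.13, edgeR adjusted p = 2.9e-06), with no overlap, and Mst1-TG 2 was among the highest libraries in the first and lowest in the second. Col16a1, a FACIT of skin and vessel walls, was at 75.4, 59.0, 75.6 and 69.3 CPM in Mst1-TG 1 to 4, against 17.6, 24.8, 20.02 and 25.5 CPM in WT 1 to 4 and rose 3.18-fold. Col22a1, a collagen of the junction between muscle and tendon, was at 3.69, 7.38, 6.97 and 3.30 CPM in Mst1-TG 1 to 4, against 0.803, 0.982, 0.856 and 0.554 CPM in WT 1 to 4, a 6.64-fold rise (edgeR adjusted p = 1.8e-05). Col20a1 lay at 1.92 to 3.97 CPM in Mst1-TG and 1.43 to 2.72 CPM in WT and was not called (0.41 ± 0.27), although by library totals alone it was (0.69, edgeR adjusted p = 0.047). It overlaps another annotated gene on the same strand, so its counts are uncertain. Col19a1 had 5 counts in Mst1-TG and 3 in WT and was not tested.

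Type VI collagen forms beaded filaments between basement membrane and fibrils, and its 3 main chains rose. Col6a1 was at 730.4, 527, 645 and 679 CPM in Mst1-TG 1 to 4, against 274, 325, 302 and 342 CPM in WT 1 to 4. Col6a2, its neighbour on chromosome 10, was at 742, 483, 603 and 656 CPM in Mst1-TG 1 to 4, against 235, 315, 281 and 338 CPM in WT 1 to 4. Col6a3 was at 339.8, 220.0, 249.8 and 284 CPM in Mst1-TG 1 to 4, against 129, 214, 171 and 188 CPM in WT 1 to 4. Groups did not overlap in any of the 3, although Mst1-TG 2 and WT 2 nearly met in Col6a3. The log2 fold changes were 1.06 ± 0.10, 1.09 ± 0.14 and 0.64 ± 0.17 (edgeR adjusted p = 2.8e-06, 7.1e-05 and 0.012). Col6a6, an alternative to the Col6a3 chain, lay at 14.03 to 30.0 CPM in Mst1-TG and 17.4 to 21.8 CPM in WT and was not called. Col6a4 had 9 counts over the Mst1-TG libraries and 0 over the WT libraries, Col6a5 had 10 and 11, and neither was tested.

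The multiplexins, basement membrane proteins whose ends release endostatin-like fragments, both rose. Col15a1 was at 1186, 705, 835 and 957 CPM in Mst1-TG 1 to 4, against 279, 455, 408 and 459.9 CPM in WT 1 to 4, a 2.30-fold rise (1.20 ± 0.19, edgeR adjusted p = 6.4e-04). Col18a1 was at 67.1, 60.5, 86.5 and 71.3 CPM in Mst1-TG 1 to 4, against 42.7, 43.1, 50.5 and 54.9 CPM in WT 1 to 4, a 1.49-fold rise (0.58 ± 0.11, edgeR adjusted p = 0.0014). Neither gene overlapped between groups. Col7a1, the anchoring fibril of skin, was scarce, at 1.26, 3.24, 3.63 and 1.97 CPM in Mst1-TG 1 to 4, against 0.614, 0.724, 0.523 and 0.302 CPM in WT 1 to 4. All its Mst1-TG libraries lay above all WT libraries, and it rose 4.62-fold (2.21 ± 0.38, edgeR adjusted p = 3.8e-04).

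Of the transmembrane collagens, Col23a1 was the single one that rose. It was at 6.45, 7.94, 8.32 and 5.35 CPM in Mst1-TG 1 to 4, against 4.15, 4.39, 2.188 and 4.28 CPM in WT 1 to 4 (0.90 ± 0.21, edgeR adjusted p = 0.0043). Col13a1, a collagen of the neuromuscular junction, lay at 1.74 to 5.75 CPM in Mst1-TG and 2.188 to 3.68 CPM in WT and Col25a1 at 0.730 to 1.09 CPM in Mst1-TG and 0.655 to 1.396 CPM in WT, and neither was called, though Col13a1 was (0.65, edgeR adjusted p = 0.041) without Mst1-TG 1, its lowest Mst1-TG library. Col17a1 of hemidesmosomes had 22 counts in Mst1-TG and 11 in WT and was not tested. Col26a1 was at 24.2, 17.4, 20.7 and 27.3 CPM in Mst1-TG 1 to 4, against 6.42, 7.18, 7.42 and 8.67 CPM in WT 1 to 4, a 3.02-fold rise without overlap (edgeR adjusted p = 1.6e-06). Col28a1, found along peripheral nerve, lay at 4.04 to 5.15 CPM in Mst1-TG and 3.23 to 5.34 CPM in WT and was not called.

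The make-up of the collagen pool is described by the share each class held. Fibrillar genes held 44.0% ± 1.92 in Mst1-TG and 36.7% ± 1.34 in WT (SD, n = 4 each) of summed collagen CPM, and type IV genes held 32.2% ± 2.90 in Mst1-TG and 43.4% ± 1.73 in WT. In both classes the groups did not overlap, the fibrillar share being higher and the type IV share lower in Mst1-TG. Col1a1 alone held 10.3% ± 0.877 in Mst1-TG and 6.57% ± 0.3998 in WT, while Col3a1 held 15.7% ± 1.03 in Mst1-TG and 16.6% ± 0.727 in WT and overlapped. The type VI share was 11.6% ± 0.621 in Mst1-TG and 11.5% ± 0.356 in WT. FACITs held 2.27% ± 0.182 in Mst1-TG and 1.15% ± 0.0918 in WT and network collagens 2.20% ± 0.272 in Mst1-TG and 0.541% ± 0.0569 in WT, again without overlap. A share is taken within a library and does not depend on library scaling, but shares of 1 pool are bound to each other, and they are given as a description.

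**Figure D3:**
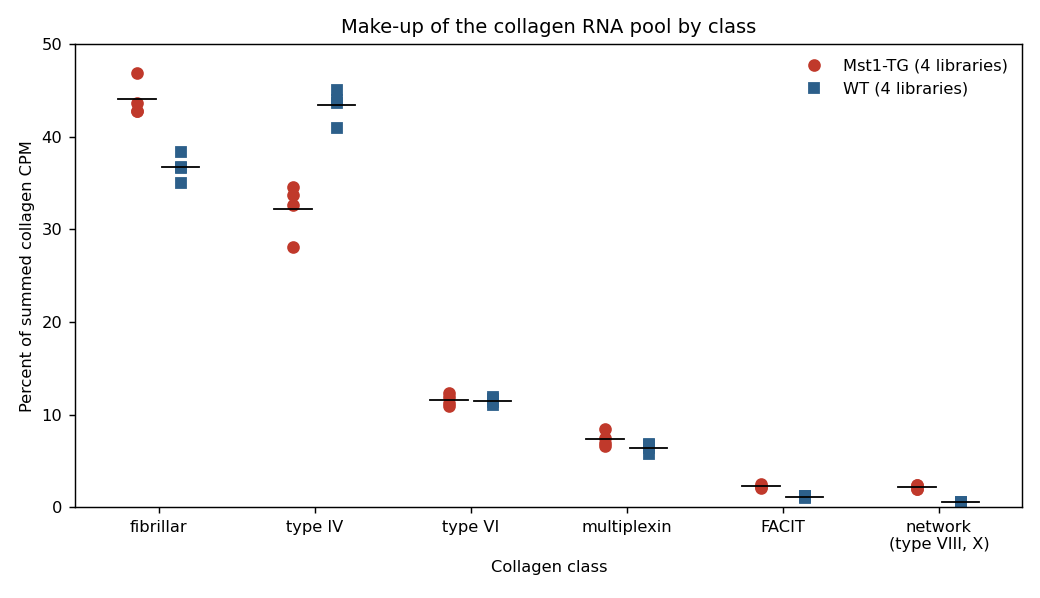
Percent of the summed collagen CPM of each library held by each of 6 classes, with circles for Mst1-TG, squares for WT and bars for group means. Fibrillar shares are higher in Mst1-TG (44.0%) than in WT (36.7%), type IV shares lower (32.2% in Mst1-TG and 43.4% in WT), and type VI shares are 11.6% and 11.5%.

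Ratios between chains, taken from counts per kilobase in the same library, were computed for 8 pairs, and 4 of them did not overlap between groups. The ratio of Col3a1 to Col1a1 was 1.55, 1.59, 1.61 and 1.73 in Mst1-TG 1 to 4, against 2.70, 2.53, 2.71 and 2.85 in WT 1 to 4. All Mst1-TG libraries lay below all WT libraries, with a log2 difference of -0.74 ± 0.05 (SE). The ratio of Col5a1 to Col1a1 was 0.213, 0.277, 0.240 and 0.268 in Mst1-TG 1 to 4, against 0.411, 0.364, 0.390 and 0.320 in WT 1 to 4, and it was lower in Mst1-TG as well (-0.57 ± 0.12). The ratio of Col5a2 to Col5a1, chains of the same trimer, was 0.831, 0.970, 1.04 and 0.840 in Mst1-TG 1 to 4, against 0.695, 0.634, 0.672 and 0.722 in WT 1 to 4 and was higher in Mst1-TG (0.43 ± 0.09). The ratio of Col6a3 to Col6a1 was 0.189, 0.169, 0.157 and 0.170 in Mst1-TG 1 to 4, against 0.191, 0.268, 0.230 and 0.223 in WT 1 to 4, lower in Mst1-TG (-0.41 ± 0.11).

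For each of these 4 ratios the exact two-sided permutation test gave p = 0.0286, the smallest that 4 libraries against 4 can give, and an adjusted p of 0.0571 over the 8 ratios, which did not pass. With 4 of 8 ratios at that smallest p, an adjusted p below 0.05 was out of reach, whatever the size of the differences. The other 4 overlapped. The type I ratio Col1a2 to Col1a1 was 1.12 ± 0.0497 in Mst1-TG and 1.07 ± 0.0429 in WT (SD, n = 4 each; exact permutation p = 0.171). Col4a2 to Col4a1 was 0.725 ± 0.0381 in Mst1-TG and 0.729 ± 0.0193 in WT (exact permutation p = 0.8286), Col6a2 to Col6a1 was 0.844 ± 0.0380 in Mst1-TG and 0.825 ± 0.0515 in WT (exact permutation p = 0.571), and Col8a2 to Col8a1 was 0.104 ± 0.0179 in Mst1-TG and 0.104 ± 0.0219 in WT (exact permutation p = 1). Their log2 differences were 0.07 ± 0.04, -0.01 ± 0.04, 0.04 ± 0.06 and -0.001 ± 0.20, with the widest SE for the type VIII pair.

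**Figure D4:**
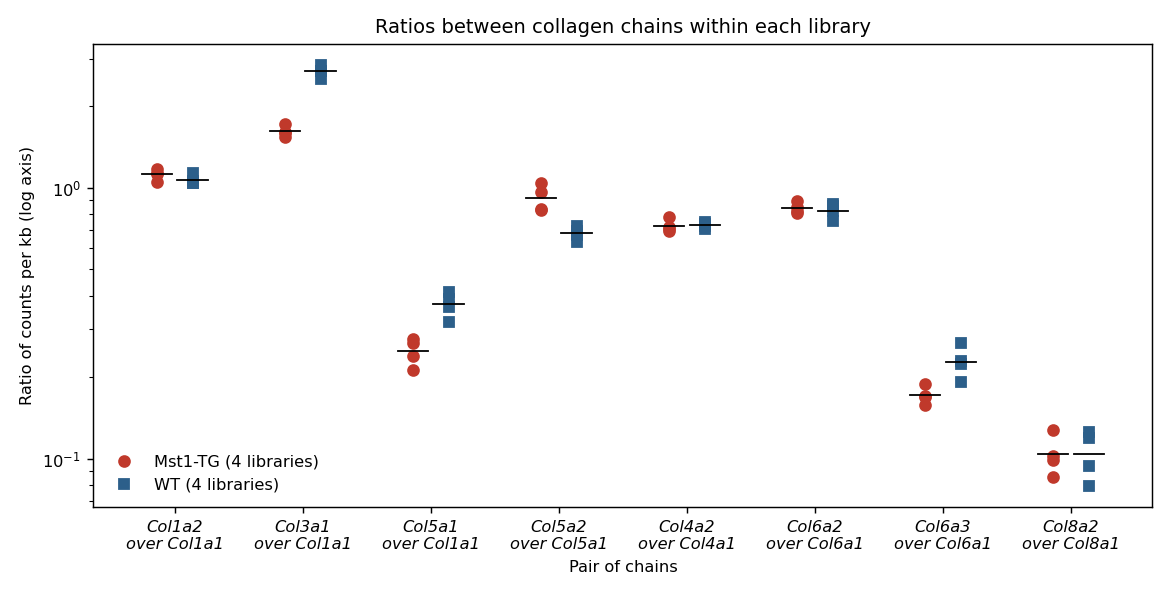
Ratios of counts per kilobase between 8 pairs of collagen chains (log axis), with circles for Mst1-TG, squares for WT and bars for group means. Col3a1 over Col1a1 stands at a mean of 1.62 in Mst1-TG and 2.70 in WT, while Col4a2 over Col4a1 is at 0.725 and 0.729.

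Within a group, many collagens ranked the libraries alike. Mst1-TG 2 was the lowest Mst1-TG library in 21 of the 39 tested collagens, against 26.2% of all genes tested, and WT 1 was the lowest WT library in 23 of 39, against 24.9% of all genes tested. The abundant genes Col1a1, Col1a2, Col3a1, Col6a1, Col6a2 and Col15a1 all had Mst1-TG 2 and WT 1 at the bottom. A smaller set had Mst1-TG 2 and Mst1-TG 3 as the highest 2 of the group: Col4a3, Col4a4, Col7a1, Col12a1, Col13a1, Col22a1, Col23a1 and Col24a1, which is 8 of 39 (20.5%), against 13.2% of all genes tested. Mst1-TG 1 and Mst1-TG 4 were the highest 2 in 12 of 39 (30.8%), against 16.8% of all genes tested. Mst1-TG 1 and Mst1-TG 3 were in 8 of 39 (20.5%), against 14.9%. The grouping by Mst1-TG 2 and Mst1-TG 3 was chosen after the values were seen.

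Genes that build, bind and break down collagen were mostly higher too. Over 77 such genes in 7 lists, 75 were tested, of which 55 rose, 3 fell and 17 were not called, against 21.2% called higher and 21.1% called lower among all genes tested. When scaled by library totals alone, 64 rose and 1, P4ha2, fell, against 7409 higher and 1592 lower of the 15314 genes tested. Of 20 intracellular genes, mostly modifying enzymes and chaperones, 14 rose and 1 fell, with a median log2 fold change of 0.34. The 14 include the transcription factor Creb3l1 (0.69 ± 0.20) and the export genes Mia3 and Sec23a (0.25 ± 0.06 and 0.23 ± 0.08), which neither modify nor fold collagen. The prolyl 3-hydroxylases P3h2, P3h3 and P3h1 rose by 1.87 ± 0.13, 1.09 ± 0.09 and 0.66 ± 0.08, and Plod2, the lysyl hydroxylase that prepares chain ends for cross-linking, by 0.81 ± 0.08. Serpinh1, the chaperone HSP47 of the collagen triple helix, named after its values were seen, was at 719, 401, 513 and 525 CPM in Mst1-TG 1 to 4, against 419, 558, 496 and 537 CPM in WT 1 to 4. Its groups overlapped, with Mst1-TG 1 highest and Mst1-TG 2 lowest of all 8, and it was not called (0.10 ± 0.16, edgeR adjusted p = 0.64). The fall was in P4ha2, a prolyl 4-hydroxylase subunit (-0.49 ± 0.08).

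Outside the cell, all 5 lysyl oxidases, the enzymes that cross-link fibrils, rose, with a median of 1.60. Lox was at 67.9, 58.2, 101 and 71.2 CPM in Mst1-TG 1 to 4, against 18.5, 18.6, 19.5 and 20.3 CPM in WT 1 to 4, a 3.88-fold rise, and Loxl1, Loxl2 and Loxl3 rose by 1.16 ± 0.09, 1.31 ± 0.10 and 1.60 ± 0.10. Of 8 procollagen proteinases and enhancers 4 rose and 1 fell. The N-proteinase Adamts2 and the C-proteinase enhancer Pcolce rose by 1.33 ± 0.07 and 1.34 ± 0.09, the C-proteinase Bmp1 by 0.78 ± 0.07 and its relative Tll1 by 1.16 ± 0.31, while Adamts3 fell (-0.52 ± 0.14). Genes for breakdown and uptake rose in 5 of 7 tested cases with a median of 1.33, among them the gelatinase Mmp2 (1.46 ± 0.08), the membrane-bound collagenase Mmp14 (1.37 ± 0.11), cathepsin K (Ctsk, 1.44 ± 0.08) and the uptake receptor Mrc2 (1.33 ± 0.08).

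Collagen receptors rose in 5 of 9 tested cases and fell in 1. The receptor kinase Ddr1 rose by 1.26 ± 0.07, the integrin chains Itga11 and Itgb1 by 1.37 ± 0.17 and 0.38 ± 0.07, and Adgrg1, an adhesion receptor for type III collagen, fell (-0.50 ± 0.08). Partners of the fibril rose in 14 of 16 cases with a median of 1.28. Postn, a matricellular protein of activated fibroblasts, was at 615, 576, 669 and 593 CPM in Mst1-TG 1 to 4, against 91.5, 115, 96.6 and 124 CPM in WT 1 to 4, with no overlap, and Bgn, Mfap5 and Aebp1 rose by 1.98 ± 0.11, 2.25 ± 0.12 and 1.57 ± 0.10. Of 10 genes listed as profibrotic signals 8 rose, with a median of 0.70. They include Smad7 and Skil, which restrain the TGF-beta pathway (0.56 ± 0.10 and 0.69 ± 0.07), and on the activating side Tgfb3 (1.34 ± 0.08) and the receptor Tgfbr1 (0.91 ± 0.07), beside Tgfb2 and Ccn2 (1.33 ± 0.07 and 2.16 ± 0.17).

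**Figure D5:**
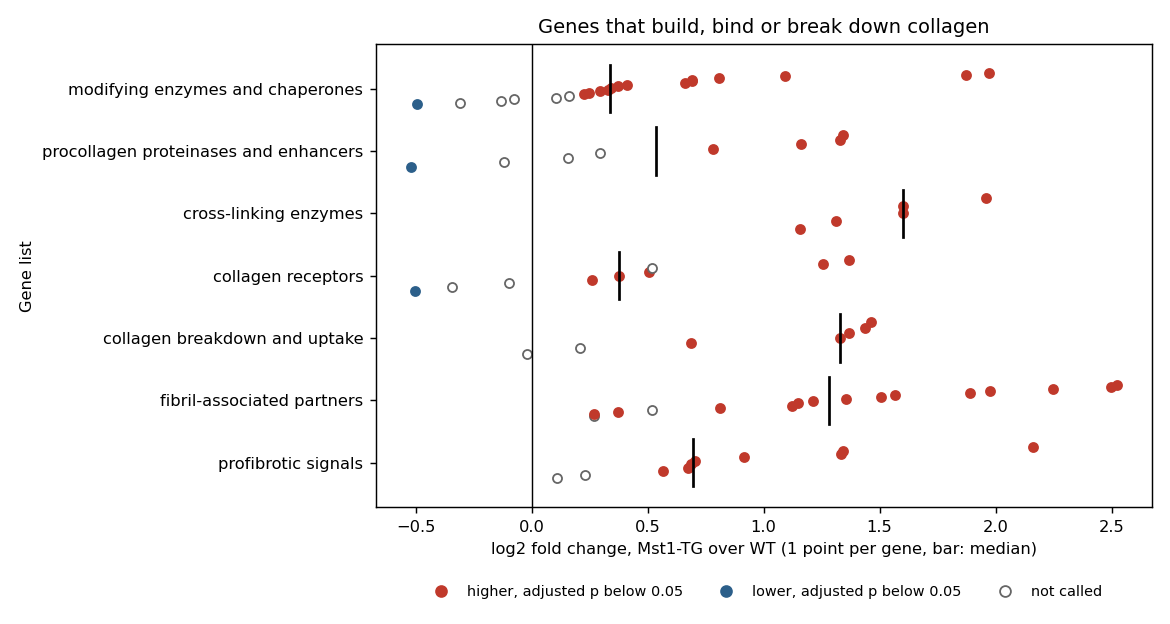
The log2 fold change (Mst1-TG over WT, x axis) of 75 tested genes in 7 lists, with 1 point per gene, a bar at each median, red for higher, blue for lower and open for not called. The lysyl oxidases all lie at 1.16 or above, while the list of modifying enzymes, chaperones and export genes has its median at 0.34.

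Markers of other cell types, some of which also make collagen, gave the following counts, to be read beside the 21.2% called higher and 21.1% called lower among all genes tested. Of 7 endothelial markers 0 rose, 3 fell and 4 were not called, with a summed 1630.0 to 2585 CPM in Mst1-TG and 2254 to 2897 CPM in WT. By edgeR, 1 of 6 pericyte markers rose (Cspg4, 1.37 ± 0.06) and 2 fell, with sums of 1258 to 1500.4 CPM in Mst1-TG and 1458 to 1738 CPM in WT. Of 5 smooth muscle markers 1 rose and 3 fell, among them Acta2, at 267, 147, 149 and 168 CPM in Mst1-TG 1 to 4, against 318, 564, 497 and 568 CPM in WT 1 to 4, with every Mst1-TG library below every WT library. These calls depend on the scaling: by library totals alone 0 of 7 endothelial, 1 of 6 pericyte and 1 of 5 smooth muscle markers (Acta2) were lower. Higher under that scaling were 3 pericyte and 2 smooth muscle markers. Counts by library totals are to be read beside the 7409 genes called higher and 1592 called lower that way, of 15314 tested. Of 6 macrophage and 4 epicardial markers 0 were called, against 4 and 1 higher by library totals alone, the epicardial list with sums of 21.03 to 37.7 CPM in Mst1-TG and 17.6 to 27.6 CPM in WT. T cell markers summed to 0.561 to 1.47 CPM in Mst1-TG and 0.517 to 1.11 CPM in WT. Schwann cell markers summed to 9.07 to 14.4 CPM in Mst1-TG and 11.5 to 13.4 CPM in WT, and 1 of 3 tested, Kcna1, fell (-0.70 ± 0.24) and was not called by library totals alone. Macrophage markers summed to 184 to 264 CPM in Mst1-TG and 176 to 222 CPM in WT, and smooth muscle markers to 423 to 558 CPM in Mst1-TG and 623 to 892 CPM in WT. No marker of these lists was at 0 in all 8 libraries.

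Lists for tissue rich in Col9a2, Col11a1, Col12a1 or Col22a1 were also read. Of 5 valve or cartilage-like markers 2 rose, Sox9 (1.51 ± 0.19) and Matn4 (0.70 ± 0.22). Among all genes tested 21.2% were called higher and 21.1% lower. Acan, the main proteoglycan of cartilage, lay at 0.950 to 1.38 CPM in Mst1-TG and 0.756 to 1.29 CPM in WT. It was not called (0.31 ± 0.27), nor were Chad (-0.03 ± 0.33) and Hapln1 (-0.25 ± 0.41). Both tested tendon-like markers of 3 rose, Scx at 20.4, 20.9, 23.9 and 17.8 CPM in Mst1-TG 1 to 4, against 6.00, 6.25, 5.66 and 4.28 CPM in WT 1 to 4 and Tnmd at 3.28, 2.07, 3.02 and 1.38 CPM in Mst1-TG 1 to 4, against 0.283, 0.362, 0.380 and 0 CPM in WT 1 to 4. The valve or cartilage-like list summed to 23.5 to 38.9 CPM in Mst1-TG and 10.6 to 18.9 CPM in WT. Sox9 made up most of that sum in Mst1-TG, at 17.0 to 29.5 CPM, and was at 6.23 to 8.43 CPM in WT. The tendon-like list summed to 19.2 to 26.9 CPM in Mst1-TG and 4.59 to 6.72 CPM in WT. Of 4 atrial markers 3 fell, of which Sln was the 1 still lower by library totals alone, and Nppa, also a stress gene of the ventricle, rose, at 5099.5 to 7252 CPM in Mst1-TG and 191 to 243 CPM in WT. Myl7 was at 42.7, 19.0, 22.6 and 13.7 CPM in Mst1-TG 1 to 4, against 58.3, 51.0, 45.4 and 44.3 CPM in WT 1 to 4. The part of any of these cells in the collagen values was not tested.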

How the data were processed

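RNA-seq was analysed in 8 left ventricle libraries, 4 Mst1-TG and 4 WT, with groups and replicate numbers taken from the titles. The submitters' processing notes name bcl2fastq 2.19.1.403 and kallisto 0.46.0, which returns estimated counts; rRNA-depleted total RNA and a directional kit were used, per the labels' protocols, and neither build, annotation nor strand setting is given in the sources used here. The authors deposited estimated counts as whole numbers, not scaled for depth, so rounding changed nothing. Counts were tested in R 4.3.3 with edgeR 4.0.16 (filterByExpr with minimum count 10 and total 15, TMM, robust quasi-likelihood F test, Benjamini-Hochberg threshold 0.05 over 15314 genes). The SE is the log2 fold change over the root of F. CPM carry the TMM factors, 1.08 to 1.13 in Mst1-TG and 0.891 to 0.937 in WT. At 21193536 to 23809256 counts per library the biological coefficient of variation was 11.4%. No replicate pair agreed within sampling noise (chi-square over degrees of freedom 7.92 to 23.4). The labels do not say that numbers mark separate animals, so p-values reflect only how these libraries vary, which may be technical.

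Lengths (longest coding transcript) and positions came from GENCODE M21, which held 41 collagen identifiers with their version and 3 without it. Promoter windows came from RefSeq (GRCm38.p6), and motifs were searched on both strands. Where identifiers shared a symbol, the one with most counts was used. Collagens share repeats, and kallisto's division of ambiguous reads among them cannot be checked here. All collagens were described. Values in every library are given for those called and for the 8 most abundant per kilobase, and of each pathway list the 4 genes with the smallest p are named. Outside that rule, Col5a3, Col9a1 and Col9a3 are also given by library. From the pathway lists P4ha2, Serpinh1, Creb3l1, Mia3, Sec23a, Adamts3, Smad7 and Skil are named outside it as well. The members and lists were chosen with earlier results of these data known. On simulated counts for Mst1-TG against WT (15085 genes tested), 77.0% of 100 genes changed 2-fold and 58.2% of 98 changed 1.5-fold were recovered, and 7.59% of calls were false. The simulation changed a far smaller share of genes than the 42.3% called in the data, so these rates may not hold there. Alternatives were 2 other scalings, the removal of mitochondrial and the 20 most abundant genes, 2 other filters, DESeq2 1.42.0, limma-voom (limma 3.58.1), non-robust dispersion, a minimum fold of 1.5, a replicate block and leaving out each library. Chain ratios were tested with scipy 1.17.1.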

Additional observations from a re-analysis of the deposited data

Results flagged for a closer look

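In a group of 4, a library is listed here when its gap to the nearest of the others exceeds the critical value of Dixon's test as a share of the group's range. Of 200 groups of values examined 8 did so, and chance gives about 1 in 20. Among the collagens, Col11a1 in WT 2 (3.05 CPM, next 1.31) had a gap of 0.865 of the range, and without WT 2 the log2 fold change of Col11a1 was 3.13. Col9a3 in Mst1-TG 2 (0.648 CPM, next 0.897) had a gap of 0.876, and Col23a1 in WT 3 (2.188 CPM, next 4.15) of 0.892; without WT 3 the log2 fold change of Col23a1 was 0.71, still called. The share of Col1a1 in the collagen pool was highest in Mst1-TG 1 (11.7%, next 10.04%), with a gap of 0.866. Among the other genes, Pcolce was highest in WT 4 (gap 0.919), Bmp1 highest in Mst1-TG 1 (0.862), Mmp2 lowest in Mst1-TG 4 (0.853) and Tgfb2 lowest in Mst1-TG 4 (0.875). The causes were not tested.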

How the results depend on the processing

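The 27 collagens called higher kept their direction under every alternative run and their call under all but the replicate block, which lost Col6a3 (0.64, adjusted p = 0.070), and the minimum 1.5-fold test, which kept 21. Same-numbered libraries did not pair (correlations of deviations -0.142 to 0.0746), so the block rests on numbers alone; it called 26 collagens and 6187 genes in all, against 6482. Library totals only called 7409 genes higher and 1592 lower, and 1 collagen-handling gene lower. The minimum 1.5-fold test called 894 higher and 848 lower, and of the collagen-handling genes 32 higher and 0 lower. Without a filter on low counts 1 collagen was called lower, Col2a1 (-1.18, adjusted p = 0.029). Signs turned only in genes not called: Col11a2 (0.18) and Col25a1 (0.11) with library totals only, and on leaving out 1 library Col11a2 (-0.29 to 0.034), Col25a1 (-0.34 to 0.0069), Col9a1 (-0.22 to 0.68), Col6a6 (-0.056 to 0.30) and Col28a1 (-0.10 to 0.13). The cause was not tested. Ratios moved by less than the spread between replicates on leaving out any library, and adding 1 to each count changed no call. Apart from the minimum 1.5-fold test, 642 single-gene values kept direction and call, 4 gained a call, 1 lost it and 11 turned. Depth limits Col6a4, Col6a5, Col10a1, Col17a1 and Col19a1, where a difference was not detectable.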

Other observations

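Proteins with a collagen-like stretch that are not named as collagens were read as well, a list of 28 genes chosen after the collagen values were seen. Of 22 tested, 9 rose, 6 fell and 7 were not called, against 21.2% called higher and 21.1% lower among all genes tested. The median log2 fold change was 0.17, against 1.03 for the collagens and 0.01 for all genes tested. Among matrix members, Cthrc1, which also stands among the fibril partners, a secreted protein of remodelling tissue, was at 4.82, 4.88, 6.97 and 5.10 CPM in Mst1-TG 1 to 4, against 0.897, 0.930, 0.618 and 1.41 CPM in WT 1 to 4, and Emilin1, an elastic fibre glycoprotein, was at 207, 146, 194 and 178 CPM in Mst1-TG 1 to 4, against 64.0, 67.6, 60.6 and 75.5 CPM in WT 1 to 4. Both lay higher in every Mst1-TG library (2.50 ± 0.24 and 1.44 ± 0.11). Emilin2, a relative of Emilin1, was at 40.9, 41.9, 35.3 and 41.9 CPM in Mst1-TG 1 to 4, against 90.2, 103, 95.03 and 79.9 CPM in WT 1 to 4 and fell (-1.20 ± 0.08, edgeR adjusted p = 1.7e-07).

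The C1q/TNF-related secreted proteins moved both ways. C1qtnf6 was at 131, 119.6, 153 and 156 CPM in Mst1-TG 1 to 4, against 53.3, 61.0, 58.6 and 68.0 CPM in WT 1 to 4 and rose (1.22 ± 0.10), whereas C1qtnf9, a circulating relative of adiponectin made in heart and fat, was at 22.6, 20.5, 15.7 and 27.4 CPM in Mst1-TG 1 to 4, against 57.1, 52.5, 55.8 and 65.6 CPM in WT 1 to 4 and fell (-1.42 ± 0.14). The scavenger receptors with a collagen-like stalk also parted, Colec12 rising (1.11 ± 0.07) and Scara5, a ferritin receptor, falling (-1.67 ± 0.11). The complement chains C1qa, C1qb and C1qc were not called, with log2 fold changes of -0.03, -0.06 and 0.04.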
